A study of Mus musculus with 2 samples.

Results

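The phagocyte NADPH oxidase is the enzyme complex with which macrophages and neutrophils reduce oxygen to superoxide. Of its genes, 6 are described here in stimulated mouse macrophages: Cybb and Cyba for the membrane subunits, Ncf1 and Ncf4 for cytosolic subunits, and Rac1 and Rac2 for the GTPases that switch the complex on. They were matched by gene symbol from a fixed list, which was drawn up with earlier results of these data known, and all 6 of 6 were found among the 55536 mouse genes of the tables. The set does not hold every gene of the complex.

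The cells were primary bone-marrow-derived macrophages of the mouse strain C57BL/6J, held for 120 minutes with a stimulus at 100 ng/ml. The free-text label calls it lipid A, the membrane anchor of bacterial lipopolysaccharide, while the treatment and source fields call it lipoprotein A, a protein. Their polyadenylated RNA was sequenced in 2 libraries, labelled biological replicates 1 and 2 of 1 group, with no genetic change named. Age and sex were not recorded. Both libraries are filed under 1 donor record and nothing states that they come from different animals, so the spread between them may be technical. Libraries from unstimulated cells were not analysed here: each value is a level in stimulated cells, not a response. The libraries held 33272581 and 50266403 expected counts on mouse genes.

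The catalytic subunit, gp91phox, is encoded by Cybb and carries electrons from NADPH in the cytosol across the membrane to oxygen. It is held in the membrane as a pair with p22phox, the product of Cyba, which also docks the cytosolic organiser p47phox, the product of Ncf1. In resting cells the cytosolic subunits, among them p40phox from Ncf4, stay apart from the membrane. On stimulation they are phosphorylated and move to it together with a Rac protein carrying GTP, of which Rac2 is the form made in blood cells and Rac1 the form made in most cells.

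The genes lie at these places in the mouse assembly mm10 (GENCODE annotation M21). Cybb is on chromosome X at 9435252 to 9487771 on the minus strand, and Cyba on chromosome 8 at 122424776 to 122432930, minus strand. Ncf1 is on chromosome 5 at 134220053 to 134229625 and Rac1 on the same chromosome at 143503634 to 143528036, both on the minus strand. Ncf4 is on chromosome 15 at 78244801 to 78262580, plus strand, and Rac2 on that chromosome at 78559167 to 78572783, minus strand. The annotation gives them 28 transcripts, of which 10 are protein coding with both a start and a stop codon, called complete coding transcripts below.

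In 3 of the genes, complete coding transcripts differ by a coding stretch that is kept or left out without a shift of reading frame. These stretches are shown because they tell apart the complete coding forms whose shares are given below. In Rac1 these forms also differ at the 3′ end. Each sequence is transcript sequence of the minus strand, 5′ to 3′, with the alternative bases in capitals and the 15 bases on either side in lower case. In Rac1 it is a 57-base exon of 19 codons at chr5:143509597-143509653, present in transcript Rac1-202 and absent from Rac1-201. The Rac1 form with an added exon at this place is known as Rac1b.
Rac1-202, exon kept: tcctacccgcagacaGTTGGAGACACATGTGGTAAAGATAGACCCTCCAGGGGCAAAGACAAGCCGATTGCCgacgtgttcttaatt
Rac1-201, exon left out: tcctacccgcagacagacgtgttcttaatt
In Cyba it is an 84-base exon of 28 codons at chr8:122426936-122427019, present in Cyba-201 and absent from Cyba-202.
Cyba-201, exon kept: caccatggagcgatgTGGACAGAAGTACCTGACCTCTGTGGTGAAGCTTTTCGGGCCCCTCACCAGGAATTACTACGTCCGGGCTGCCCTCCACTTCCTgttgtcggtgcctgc
Cyba-202, exon left out: caccatggagcgatggttgtcggtgcctgc
In Ncf1 it is the last 42 bases (14 codons) of a longer version of an exon, at chr5:134221988-134222029, present in Ncf1-201 and absent from Ncf1-202.
Ncf1-201, longer exon: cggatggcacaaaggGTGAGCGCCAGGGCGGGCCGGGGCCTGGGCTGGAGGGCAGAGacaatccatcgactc
Ncf1-202, shorter exon: cggatggcacaaaggacaatccatcgactc

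All 6 genes stood at over 100 TPM in both libraries. TPM is a measure of RNA abundance that corrects for the length of the transcript and for sequencing depth. The lowest mean of the 6, at rank 1135 of all 55536 genes, lay above 89.0% of the 10285 genes at 1 TPM or more in both libraries. Cyba stood highest and Ncf4 lowest, 17.4-fold apart in replicate 1 and 12.4-fold in replicate 2. Each library was quantified by 2 methods, one with the column names of RSEM, whose values are given unless another is named, and one with those of kallisto. The RSEM tables gave the 6 genes together 3127 TPM in replicate 1 and 2927 TPM in replicate 2 (3027 ± 141, SD, n = 2).

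Of the membrane subunits, Cyba stood at 1798 TPM in replicate 1 and 1465 TPM in replicate 2 (1632 ± 236, SD, n = 2), rank 72 of all genes. Cybb stood at 449.9 and 524 TPM (487 ± 52.6, SD, n = 2), rank 279. The libraries of the genes did not overlap, although replicate 1 had the higher Cyba level and replicate 2 the higher Cybb level. Within a library Cyba therefore exceeded Cybb 3.997-fold in replicate 1 and 2.79-fold in replicate 2 (3.40 ± 0.851, SD, n = 2). By kallisto the excess was 3.43-fold and 2.35-fold. Reads run the other way: Cybb held 44654 and 77163 expected counts and Cyba 18596 and 22249. The effective lengths behind these counts, the positions at which a fragment can start, were 4399 and 4426 bases for Cybb and 458 and 457 bases for Cyba.

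Of the cytosolic subunits, Ncf1 stood at 216 TPM in replicate 1 and 268 TPM in replicate 2 (242 ± 36.8, SD, n = 2), rank 582. Ncf4 stood at 103 and 118 TPM (110 ± 10.4, SD, n = 2), rank 1135, and was the lowest of the 6 in each library. Both were higher in replicate 2, and the gap between the genes was larger than the spread of either. The ratio of organiser to p40phox transcripts was 2.09 and 2.27 (2.18 ± 0.128, SD, n = 2), and kallisto gave 2.00 and 2.27.

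Of the GTPases, Rac1 stood at 331 TPM in replicate 1 and 298 TPM in replicate 2 (314 ± 23.4, SD, n = 2), rank 447. Rac2 stood at 229 and 255 TPM (242 ± 18.2, SD, n = 2), rank 583. Rac1 was above Rac2 1.45-fold in replicate 1 and 1.17-fold in replicate 2 (1.31 ± 0.195, SD, n = 2). By kallisto the excess was 1.14-fold and 1.06-fold, with Rac1 at 278 and 241 TPM and Rac2 at 243 and 226 TPM, so the levels of the GTPases overlapped between libraries.

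From the highest mean to the lowest, the order was Cyba, Cybb, Rac1, Ncf1, Rac2 and Ncf4. Of the 5 pairs of neighbours, 4 did not overlap between libraries, and Ncf1 and Rac2 did, with means 1.00-fold apart. By kallisto the order was Cyba, Cybb, Rac1, Rac2, Ncf1 and Ncf4, and the overlapping pair was Rac1 and Rac2. An exact permutation test of 2 values against 2 cannot reach a 2-sided p of 0.05, the usual threshold. No test is therefore given for these gaps. The overlap rule leaves aside that both genes were measured in the same libraries: by kallisto Rac1 was above Rac2 in each. The plot of levels by gene and library shows both orders, and another that counts complete coding transcripts alone.

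**Figure D1:**
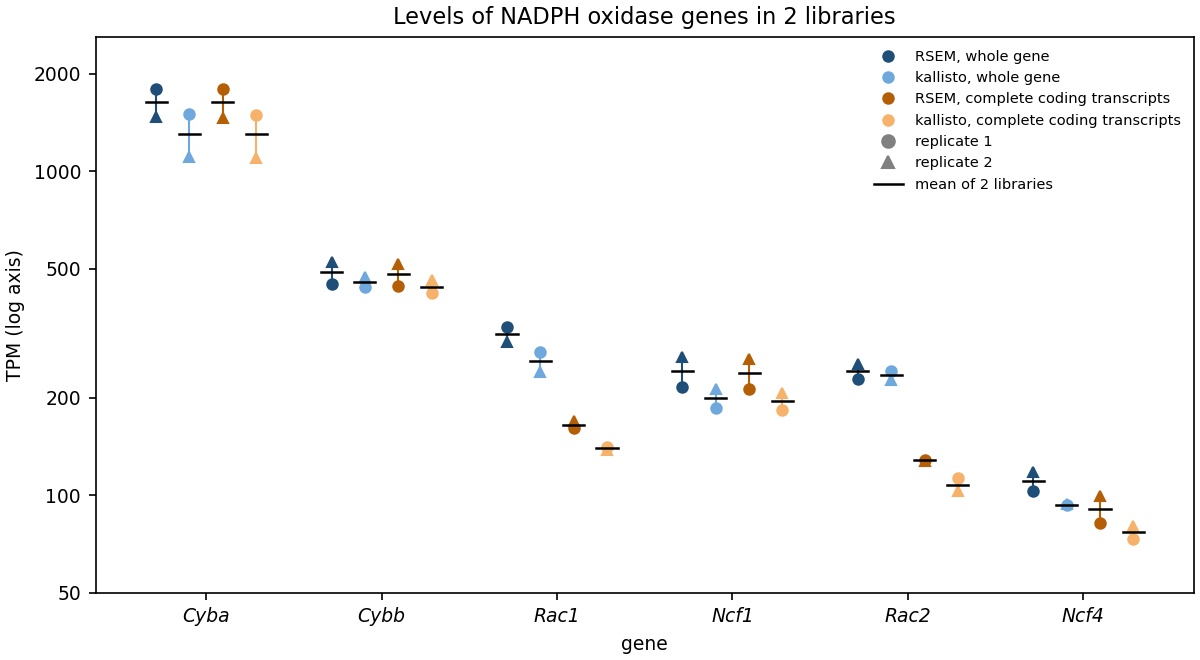
TPM on a log axis for the 6 genes, with circles for replicate 1, triangles for replicate 2 and black bars for the mean of the 2 libraries. Blue symbols count the whole gene and orange symbols its complete coding transcripts, each by RSEM (dark) and kallisto (light). The orange symbols of Cyba, Cybb and Ncf1 sit near the blue ones, while those of Rac1 and Rac2 are lower, with RSEM means of 165 and 128 TPM in place of 314 and 242 TPM.

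The membrane and organiser genes were carried by 1 transcript each. Cybb-201 held 98.3% of Cybb TPM in replicate 1 and 99.0% in replicate 2, and Cyba-201, which keeps the 84-base exon, held 97.4% of Cyba TPM in both. Cyba-202, which leaves it out, held 2.45% and 2.53%, on 354 and 437 counts, and kallisto gave 1.83% and 1.80%. Ncf1-202, with the shorter exon, held 95.8% and 94.5% of Ncf1 TPM. Ncf1-201, with the 42 added bases, held 2.62% and 3.42% on 316 and 755 counts, and 3.08% and 3.49% by kallisto. In both genes the minor form thus stayed under 4% in each library and by each method.

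Ncf4 was less uniform. Ncf4-201, its only complete coding transcript, held 79.4% of Ncf4 TPM in replicate 1 and 84.2% in replicate 2. The 4 transcripts annotated as retaining an intron held 16.1% and 12.2% together (17.9% and 10.1% by kallisto). The largest of them, Ncf4-204, is 336 bases long and rested on 14.3 and 26.7 counts. The remainder fell to Ncf4-203, a protein-coding transcript outside the complete ones defined above, with 4.49% and 3.60%.

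Rac1 TPM was split between a complete and a truncated model. Rac1-202, with the 57-base exon, held 42.7% in replicate 1 and 48.9% in replicate 2, or 141 and 146 TPM. Rac1-204, a 585-base transcript annotated without a reading frame and without the 57-base exon, held 51.4% and 43.1%, or 170 and 128 TPM. Rac1-201, 4159 bases long and without the exon, held 5.87% and 8.02%, and Rac1-203 held none. By kallisto the shares of Rac1-202 were 47.4% and 53.4% and those of Rac1-204 were 49.0% and 42.8%. By both methods Rac1-204 thus led in replicate 1 and Rac1-202 in replicate 2.

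Rac1-204 took these shares of TPM on few counts: 1168 of 9375 in replicate 1 and 1295 of 14250 in replicate 2. The complete transcripts held 87.5% and 90.9% of Rac1 counts but 48.6% and 56.9% of Rac1 TPM. The effective length of the gene, an average over its transcripts by their share, was 1256 bases in replicate 1 and 1439 in replicate 2. Rac1 was lower in replicate 2 as TPM and higher as CPM (counts scaled to library size, here with edgeR's TMM factors), at 268 and 298 CPM. The median log2 ratio over all genes was also lower, by 0.09, on the scale of TPM + 1. The part of the effective length in the turn was not tested.

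Of the complete coding Rac1 TPM, Rac1-202 held 87.9% in replicate 1 and 85.9% in replicate 2, and 93.0% and 93.3% by kallisto. These values are not shares of Rac1 mRNA with the 57-base exon. Rac1-201 has a 3′ untranslated region 1848 bases longer than that of Rac1-202, so the annotation joins the exon to the nearer 3′ end and offers no complete transcript with the nearer end and without the exon. Of the 2295 stretches of 31 bases in Rac1-202, 86 occur in no other Rac1 transcript. The tables hold no counts per exon junction, so use of the exon was not measured.

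Rac2 TPM was split over its 3 transcripts. Rac2-201, the complete coding one, held 56.3% in replicate 1 and 50.2% in replicate 2, Rac2-203 held 25.3% and 27.3%, and Rac2-202, annotated for nonsense-mediated decay, held 18.4% and 22.5%. Rac2-203 is a 254-base fragment of which 243 bases lie within Rac2-201, and 9 of its 224 stretches of 31 bases occur in no other Rac2 transcript. Its 57.9 and 69.5 TPM rested on 39.9 and 78.2 expected counts, with credibility intervals in the deposited tables of 22.2 to 93.1 and 39.9 to 96.2 TPM. By kallisto the fragment held 192 and 326 counts and 40.6% and 37.0% of Rac2 TPM. Rac2-201 held 97.4% and 96.4% of the gene's counts.

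**Figure D2:**
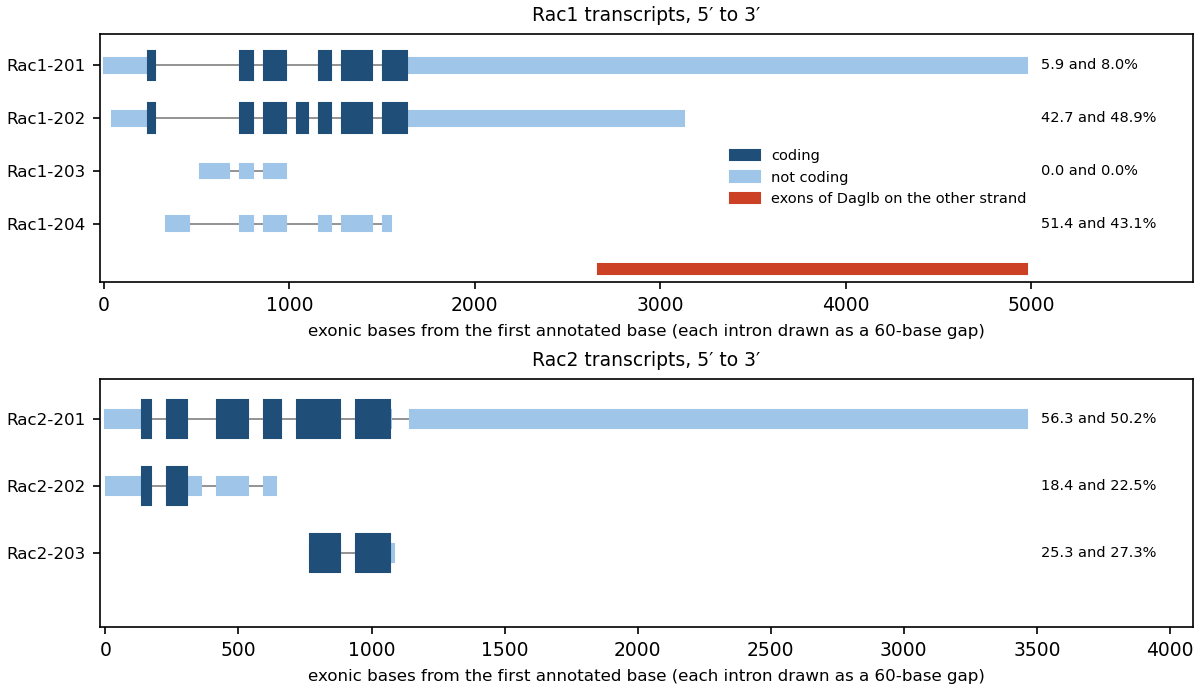
Exon maps of the Rac1 and Rac2 transcripts, 5′ to 3′, with exons to scale in bases and each intron drawn as a gap of 60 bases. Dark blue is coding, light blue not coding, red the exon sequence of Daglb on the other strand, and the percentages at the right are the RSEM shares of the gene's TPM in replicates 1 and 2. The longest complete transcripts hold 5.9 and 8.0% of Rac1 and 56.3 and 50.2% of Rac2.

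Counted over complete coding transcripts alone, a measure added after the data were seen, both GTPases stood lower, and Rac1 fell behind Ncf1 in the order. Rac1 stood at 161 and 170 TPM (165 ± 6.20, SD, n = 2) and Rac2 at 129 and 128 TPM (128 ± 0.764, SD, n = 2). Cyba (1630 ± 235 TPM), Cybb (480 ± 54.4 TPM) and Ncf1 (239 ± 35.8 TPM) stayed near their whole-gene levels, and Ncf4 stood at 90.5 ± 12.2 TPM (SD, n = 2 for each). The order was then Cyba, Cybb, Ncf1, Rac1, Rac2 and Ncf4 by both methods, with no overlap between neighbours. Rac1 exceeded Rac2 1.25-fold and 1.33-fold in replicates 1 and 2, and by kallisto 1.25-fold and 1.34-fold.

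Across 8914 expressed protein-coding genes with more than 1 transcript, the median share of TPM in complete coding transcripts was 93.3%, with quartiles of 75.2% and 99.0%. Rac1, at 52.7 ± 5.89% (SD, n = 2), lay above 10.5% of these genes, and Rac2, at 53.2 ± 4.32%, above 10.8%. Ncf4, at 81.8 ± 3.40%, lay above 31.7% of them, while Cybb (98.6%), Ncf1 (98.7%) and Cyba (99.9%) lay above 71.6%, 72.6% and 84.7%. By this share the GTPases were in the lower part of the distribution and the membrane and organiser genes in the upper part. The share depends on which transcripts the annotation calls complete.

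**Figure D3:**
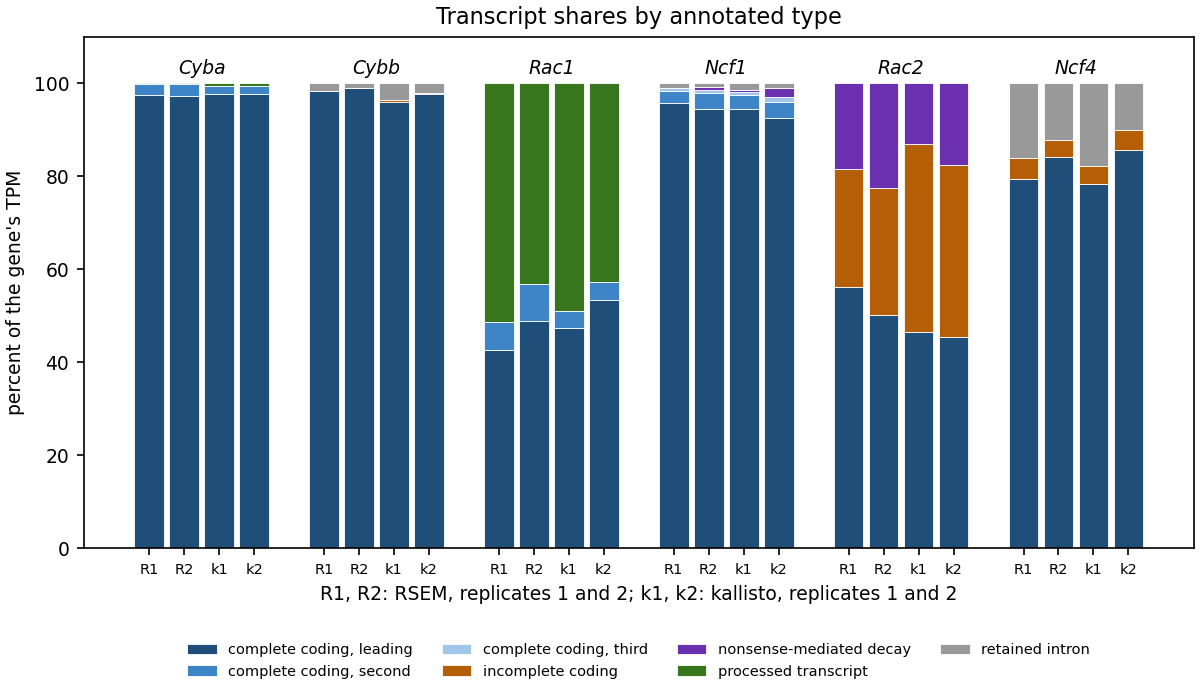
Percent of each gene's TPM held by its annotated transcripts, stacked by type, for RSEM (R1, R2) and kallisto (k1, k2) in replicates 1 and 2. Dark blue is the complete coding transcript with the largest share. It fills 92.5% or more of the bars of Cyba, Cybb and Ncf1, 78.3 to 85.7% of those of Ncf4, and 42.7 to 56.3% of those of Rac1 and Rac2.

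Some of these levels share sequence with other genes. Of the distinct stretches of 31 bases in Rac1 transcripts, 51.3% also occur in another gene, 50.7% in Daglb, a diacylglycerol lipase gene on the opposite strand whose exons cover 2309 bases of Rac1 exons. The overlap lies in the 3′ untranslated part, and covers 55.5% of Rac1-201, 19.8% of Rac1-202 and no base of Rac1-204. Daglb held 2675 and 3368 counts, or 27.3 and 23.2 TPM. Whether the counting used strand is not given in the sources used here, and without strand reads from the shared bases cannot be told apart. Ncf1 shares 408 exon bases with Gtf2ird2 on the opposite strand, 282 of them coding bases of Ncf1-202, and Gtf2ird2 stood at 1.70 and 1.65 TPM. Such stretches made up 9.84% of Ncf1, 7.39% of Cyba and 4.42% of Rac2, and 0% of Cybb and Ncf4.

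Each of the 6 genes differed by less than 1.5-fold between the libraries. Ratios of TMM-normalised CPM were taken over the 10445 genes whose mean count reached 50, of which 415, or 3.97%, lay 2-fold or more apart (181 higher and 234 lower in replicate 2, or 66 and 164 on the scale of TPM + 1). None of the 6 (0 of 6) lay 2-fold apart, and none lay 1.5-fold apart, as 14.6% of all genes did. The spread between replicates, as edgeR's biological coefficient of variation, was 21.5%. With 1 library on each side these ratios have no replicate check and carry no p-value.

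The log2 ratio of replicate 2 over replicate 1 was 0.34 for Cybb (1275 and 1616 CPM in replicates 1 and 2), 0.42 for Ncf1 (336 and 450 CPM) and 0.35 for Ncf4 (66.2 and 84.7 CPM). It was 0.16 for Rac1 and 0.11 for Rac2 (235 and 254 CPM). Cyba, at 531 and 466 CPM and a log2 ratio of -0.19, was the 1 gene lower in replicate 2, and 58.7% of all genes had a larger absolute ratio. On the TPM scale Rac1 was lower too, at -0.15. The 6 ratios had a median of 0.25 against 0.01 over all genes, of which 51.2% were higher in replicate 2.

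Ratios moved with transcript length over all genes. In 5 equal classes of effective length the median log2 ratio was -0.03 in class 1, the shortest, then -0.05, 0.00 and 0.04, and 0.09 in class 5, the longest. Cyba and Ncf4 are in class 1, Rac1 and Rac2 in class 2, Ncf1 in class 3 and Cybb in class 5. The quartiles were -0.25 and 0.20 in class 1 and -0.27 and 0.20 in class 2. They were -0.25 and 0.22 in class 3 and -0.14 and 0.32 in class 5. Cyba, Rac1 and Rac2 lay between the quartiles of their class, and Ncf1, Ncf4 and Cybb above the upper one. The part of length in the ratios was not tested.

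**Figure D4:**
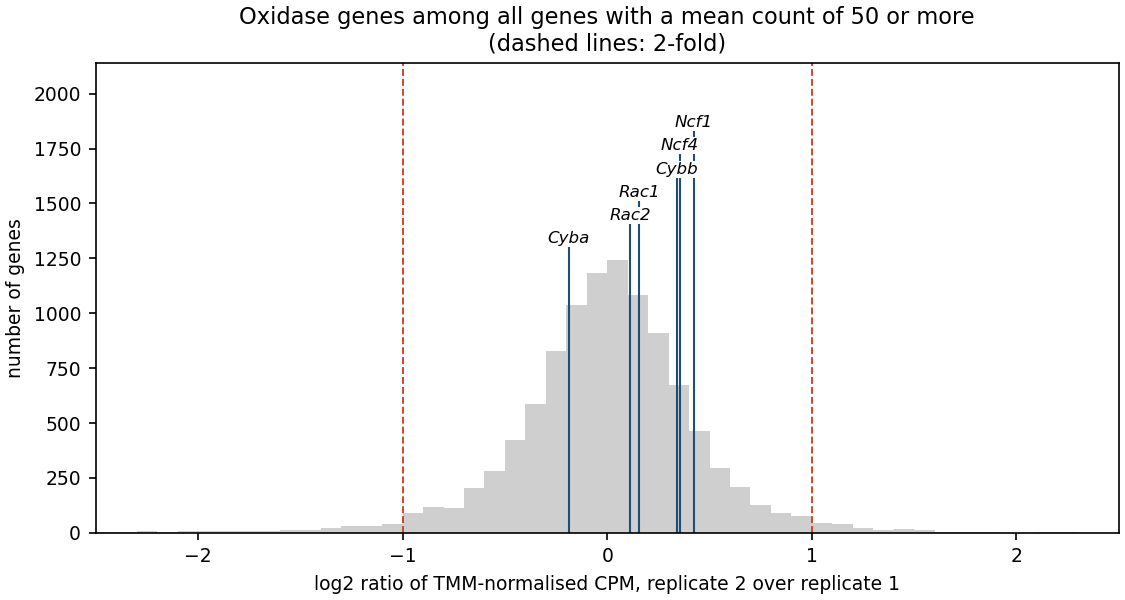
Histogram of the log2 ratio of TMM-normalised CPM, replicate 2 over replicate 1, for genes whose mean count reached 50 (35 lie outside the range drawn). Blue lines mark the 6 oxidase genes and dashed lines a 2-fold difference. Cyba stands at -0.19, the other genes between 0.11 and 0.42, and all lie inside the dashed lines.

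Defining markers fitted the macrophage label, and markers of granulocytes, which also make this oxidase, differed between the libraries. All 7 macrophage markers reached 1 TPM in both libraries, among them Lyz2 (lysozyme) at 13518 and 19283 TPM, Cd68 at 3236 and 2939 TPM, Adgre1 (the F4/80 antigen) at 681 and 707 TPM and Csf1r, the growth factor receptor, at 628 and 728 TPM. Of 14 granulocyte markers 7 were at that level in both libraries, as were 10285 of all 55536 genes. The granulocyte list summed to 607 TPM in replicate 1 and 119 TPM in replicate 2. S100a9 stood at 266 and 41.2 TPM, S100a8 at 167 and 20.5 TPM, Ngp at 67.5 and 3.21 TPM and Csf3r at 45.3 and 34.4 TPM. Of the 7 whose mean count reached 50, replicate 2 was higher for 0 and 2-fold lower for 5, beside 234 of 10445 genes. Ly6g, a defining neutrophil marker, was at 0.27 and 0 TPM, and Mpo at 1.49 and 0.20 TPM.

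Cybb and Ncf1 were higher, by RSEM and kallisto TPM, in replicate 2, the library with fewer granulocyte transcripts, and Cyba was higher in replicate 1. Ncf4 was higher in replicate 2 by RSEM TPM and nearly level by kallisto, at 93.2 and 93.9 TPM in replicates 1 and 2. Rac2 was higher in replicate 2 by RSEM TPM and in replicate 1 by kallisto TPM. Rac1 was higher in replicate 1 as TPM and in replicate 2 as CPM. The part of such cells in the levels was not tested, and in bulk RNA fewer cells of a type cannot be told apart from less RNA per cell. Platelet markers moved the same way as the granulocyte list, with a sum of 933 and 238 TPM. Nearly all of that sum was Pf4, at 916 and 236 TPM, so it mostly follows 1 gene. Other lists were low, with B cell markers summing to 20.4 and 20.5 TPM (mostly Cd22), dendritic cell markers to 10.2 and 6.76 TPM (led by Batf3) and stromal markers to 1.90 and 1.23 TPM (led by Pecam1). T cell markers summed to 80.3 and 80.7 TPM, of which Cd4 made up 75.1 and 70.3 TPM, and Cd8a and Trac were at 0.

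Other oxidases were nearly silent. Of 9 genes for other NADPH oxidases and their partners, 0 were at 1 TPM in both libraries, beside 10285 of all 55536 genes. Of the 9, 5 had no counts in either library, and the 9 summed to 0.96 and 0.75 TPM. Noxo1, the organiser of the Nox1 enzyme, stood at 0.74 and 0.33 TPM, Nox1 itself at 0.18 and 0.40 TPM, Nox4 had 3 and 0 counts, and Duoxa2, a maturation factor of another oxidase, 0 and 1. Cybb was the 1 catalytic oxidase subunit gene of these lists above 1 TPM, and none of the 9 reached the count for a ratio.

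The 4 genes for maturation of the membrane pair and for charge balance were all present and none was 2-fold apart. Over all genes, 10285 of 55536 were at 1 TPM or more in both libraries, and 3.97% of those compared were 2-fold apart. P4hb, a protein disulfide isomerase gene, stood at 255 and 214 TPM, and Nrros, whose product limits the amount of the membrane pair, at 148 and 127 TPM. Hvcn1, the proton channel that offsets the charge the enzyme moves, stood at 121 and 107 TPM. Cybc1, the chaperone that the membrane pair needs to mature, stood at 24.4 and 20.8 TPM. All 4 were lower in replicate 2, with log2 ratios from -0.10 to -0.19.

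Genes for regulators of Rac were mostly present. Of 14 exchange factors and partners, 13 were at 1 TPM or more in both libraries, beside 10285 of all 55536 genes. None (0) was 2-fold apart, beside 3.97% of all genes compared. Swap70, a Rac-binding exchange factor and the third highest gene of the list, stood at 127 and 234 TPM, the largest ratio of the list with a log2 value of 0.98, and Dock2, the fourth highest and an exchange factor for Rac in blood cells, at 76.0 and 101 TPM. Related small GTPases were found in 6 of 6 cases, with Cdc42 at 661 and 700.2 TPM, Rap1b at 523 and 544 TPM, Rhog at 397 and 410.1 TPM and Rhoa at 384 and 362 TPM. Rap1a, at 73.2 and 52.9 TPM, was furthest apart with a log2 ratio of -0.31.

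Kinases and lipid enzymes that act on the oxidase were found at 1 TPM or more in both libraries in 15 of 17 cases. The same held for 10285 of all 55536 genes. Syk, the kinase downstream of phagocytic receptors, stood at 382 and 313 TPM, and Prkcd, a protein kinase C gene, at 241 and 191 TPM. Mapk3 stood at 130 and 131 TPM and Akt1 at 126 and 113 TPM. Prkcb, the protein kinase C beta gene, was the 1 member 2-fold apart, with 908 and 2761 counts, 25.5 and 48.0 TPM and a log2 ratio of 1.16. This made 1 of the 16 genes of the list that could be compared, beside 3.97% of all genes.

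Genes of NADPH supply passed 1 TPM in both libraries in 6 of 7 cases, beside 10285 of all 55536 genes. None (0) was 2-fold apart, beside 3.97% of all genes compared. Taldo1 stood at 313 and 274 TPM, Pgd at 222 and 231 TPM, Idh1 at 150.2 and 130.2 TPM and G6pdx, the entry enzyme of the pentose phosphate pathway, at 132 and 132 TPM. Of 7 transcription factors known to act on Cybb, 5 were present and Hoxa9 and Hoxa10 had no counts. Irf1 stood at 799 and 753 TPM and Spi1, which encodes PU.1, at 328 and 322 TPM, both within 0.07 of 0 as log2 ratios. Irf8 stood at 150 and 244 TPM (log2 ratio 0.81) and Elf1 at 22.3 and 30.2 TPM. As ratios of CPM all 5 were higher in replicate 2, as were 51.2% of all genes. Any part of these factors in the oxidase levels was not tested.

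**Figure D5:**
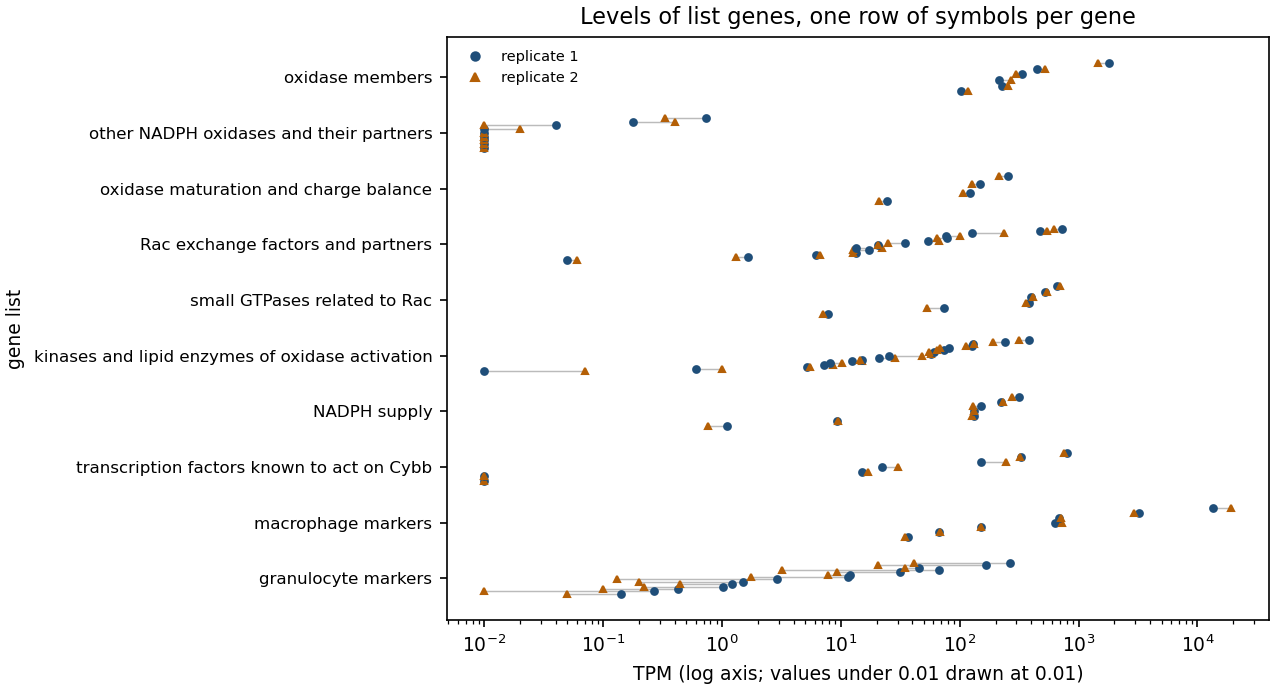
TPM on a log axis for each gene of 8 pathway lists and 2 marker lists, with circles for replicate 1 and triangles for replicate 2 joined by a line. Other NADPH oxidases lie under 1 TPM, the 6 oxidase genes between 103 and 1798 TPM, and the granulocyte markers further left in replicate 2 than in replicate 1.

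For each oxidase gene the protein-coding gene with the nearest levels was found by the largest absolute difference of log2(TPM + 1) over the 2 libraries. Cybb was nearest to Clec4e (441 and 527 TPM), a pattern recognition receptor gene, and Cyba to Lgmn (1754 and 1571 TPM), a lysosomal protease gene. Ncf1 was nearest to Selenow (213 and 274 TPM), Ncf4 to Sptan1 (103 and 116 TPM), Rac1 to Ndufa1 (329 and 294 TPM) and Rac2 to Il15 (222 and 249 TPM). The difference was 0.03 for Cybb and 0.10 for Cyba, and 7 genes lay within 0.1 of Cybb and 0 of Cyba. With 2 libraries, likeness in level says nothing beyond these values.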

How the data were processed

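RNA of stimulated mouse macrophages was sequenced in 2 libraries of 1 group, numbered as the labels number them. The authors deposited per library a gene table and a transcript table with expected counts, TPM and each transcript's percent of its gene's TPM under RSEM's column names, per the file headers. A second transcript table deposited by the authors holds estimated counts and TPM under kallisto's column names, and was summed by gene here. Assembly mm10 and GENCODE M21 are given in the labels and files. Because TPM is divided by length, short transcripts weigh more in it than in counts. Program versions are not given in the sources used here.

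Members were matched by symbol, and structures, overlaps and sequences were read from the GENCODE M21 annotation and transcripts. Expected counts were rounded. Library scaling and spread used edgeR 4.0.16 TMM over genes with 10 or more counts in both libraries (R 4.3.3), and DESeq2 1.42.0 size factors were an alternative. The libraries were not copies of each other (chi-square of 120.8 per degree of freedom). Ratios need a mean count of 50 or more. Python 3.11.15, numpy 2.4.6, pandas 2.3.3 and matplotlib 3.10.9 did the rest.

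Members and lists were chosen with earlier results of these data known. Named are all members, in each pathway list and the macrophage and granulocyte lists the 4 highest genes (apart from what is not reported) and the one furthest apart, in other marker lists the highest, and each member's nearest gene. Ly6g, Mpo, Cd8a, Trac, Hoxa9, Hoxa10 and the overlapping genes fall outside that rule and were chosen after their values were seen. A result that touches an item withheld for evaluation is not reported here.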

Additional observations from a re-analysis of the deposited data

How the results depend on the processing

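With 2 libraries of 1 group the values are levels with a spread and no test, and expected counts of 2318 or more per library stand behind each of the 6 genes. Over protein-coding genes alone all levels rose, by a factor shared by the genes within a library. The means were then 573 TPM for Cybb, 1915 for Cyba, 285 for Ncf1, 129.9 for Ncf4, 369 for Rac1 and 284 for Rac2. Kallisto gave 1306 TPM for Cyba, 199.8 for Ncf1, 93.6 for Ncf4 and 259 for Rac1, and 1.10 for the ratio of Rac1 to Rac2. Complete coding transcripts, an alternative added after the data were seen, gave 165 TPM for Rac1, 128 for Rac2 and 90.5 for Ncf4, and a ratio of Ncf1 to Ncf4 of 2.63. In counts, which are not scaled to length, the ratio of Cyba to Cybb was 0.352 and that of Ncf1 to Ncf4 was 5.20. By kallisto the leading shares were 96.9% for Cybb-201, 97.6% for Cyba-201, 93.5% for Ncf1-202 and 46.0% for Rac2-201, and among protein-coding transcripts 100%, 97.5%, 96.3% and 66.9%, with 95.3% for Ncf4-201. TPM without mitochondrial genes and posterior mean TPM moved each level by less than the spread between replicates.

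The log2 ratio of Rac1 turned from 0.16 to -0.15 on the scale of TPM + 1, where the median over all genes was lower by 0.09. The number of genes 2-fold apart was 230 of 10445 (2.20%) on that scale. It was 1047 of 12684 (8.25%) for genes reaching a mean count of 10 and 186 of 8342 (2.23%) for those reaching 200. Each time 0 of the 6 oxidase genes were among them. With shares this small, 0 of 6 does not set the oxidase genes apart from other genes. The coefficient of variation was 20.9% over genes reaching a mean count of 50. No paired analysis of groups was possible because there is 1 group and no second group to share replicate numbers with. Genes were paired within a library in the ratios of Cyba to Cybb, Ncf1 to Ncf4 and Rac1 to Rac2.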
